A study of Mus musculus with 6 samples.

Results

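The phagocyte NADPH oxidase was followed through 5 of its genes, Cybb, Cyba, Ncf1, Ncf4 and Rac2, taken by symbol from the 37620 gene rows of a count table of sorted mouse granulocyte-macrophage progenitors (GMPs). GMPs are bone marrow cells committed to producing granulocytes and monocytes, and were sorted as Lineage-negative, c-Kit-positive, Sca1-negative and CD34-positive cells stained for Fc gamma receptors. The 6 libraries came from C57BL/6 mice aged 65 days, all of them homozygous for a floxed Bap1 allele and all given polyI:polyC at 42 days per the sample labels, although the series' own description places that treatment at a younger age. In 3 libraries the mice also carried Mx1-Cre (genotype MX1+ Cre Bap1 f/f, labelled BAP1 KO), and in 3 control libraries the mice, littermates without Cre, were Bap1 f/f only. The Mx1 promoter responds to interferon and is not restricted to GMPs, and since only the group labelled BAP1 KO carried Cre, Cre itself and the loss of Bap1 cannot be told apart.

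The oxidase moves electrons from NADPH across a membrane onto oxygen and so makes superoxide, which phagocytes use against bacteria and fungi. Its catalytic core is a membrane flavocytochrome of the gp91phox protein (Cybb, also called NOX2) and the p22phox protein (Cyba). In resting cells the organizer p47phox (Ncf1) and p40phox (Ncf4) wait in the cytosol, and on activation they join the core together with a Rac GTPase, in phagocytes mainly Rac2. In humans, inherited defects of the membrane or cytosolic phox proteins cause chronic granulomatous disease. The genes are switched on during granulocyte and monocyte differentiation.

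Gene reads came to 19.5 to 24.1 M in the libraries labelled BAP1 KO and 24.1 to 25.9 M in the control libraries. BAP1 KO replicate 3 had both the fewest gene reads and the largest share of unaligned reads, 11.6%, against 6.3 to 8.4% in the other libraries. The deposited values, called normalized counts here, were read counts scaled by the authors with a single size factor for each library. Bap1 itself was at 2671, 3309 and 2968 normalized counts in the libraries labelled BAP1 KO, against 1343, 998.5 and 1076 in control libraries. This goes against the label, and since a count over the whole gene also takes in exons outside the floxed part, it does not check the deletion. Whether each library came from a separate mouse is not stated, so the p-values measure the spread between these libraries.

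The 5 genes are listed as ENSMUSG00000015340 (Cybb, chromosome X), ENSMUSG00000006519 (Cyba, chromosome 8), ENSMUSG00000015950 (Ncf1, chromosome 5), ENSMUSG00000071715 (Ncf4, chromosome 15) and ENSMUSG00000033220 (Rac2, chromosome 15). None shares exon bases with another gene in the GENCODE M21 annotation of GRCm38, although Cyba and Ncf1 each overlap a gene on the opposite strand. The gene opposite Cyba, Gm20388, is listed at 0 in all 6 libraries, and that opposite Ncf1, Gtf2ird2, was at 463.1 ± 107.5 normalized counts in the libraries labelled BAP1 KO and 248.7 ± 72.18 in control libraries (SD, n = 3 each). All 5 genes were read in every library and passed the filter on low values (a mean normalized count of at least 10). Of the 5, 2 rose in the libraries labelled BAP1 KO (Cyba and Ncf1), 0 fell and 3 did not pass the test (Cybb, Ncf4 and Rac2), by limma on log2(normalized count + 1) at a Benjamini-Hochberg adjusted p of 0.05. Across the 14391 genes tested, 11.8% rose, 15.0% fell and 26.8% passed in either direction. The median log2 fold change of the 5 genes was 0.56, beside 0.005 over all genes tested. In bulk RNA, a change in the share of cells that carry a transcript cannot be told apart from a change in its amount per cell.

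RefSeq promoter windows (GRCm38.p6) were matched for 3 of the 5 genes, Cybb, Cyba and Ncf1. Windows were sought for all 5 genes and each one found is shown, with none matched for Ncf4 or Rac2. They are given because factors known to act on oxidase promoters were measured as well. Each runs 5′ to 3′ from 250 bases before the annotated start to 30 bases after it, on the minus strand of X:9469295-9469574 (Cybb), 8:122432911-122433190 (Cyba) and 5:134229596-134229875 (Ncf1). Capitals mark GAGGAA, a core recognized by the myeloid factor PU.1, and 2 copies of GAAA with any 2 bases between them, a core of interferon-responsive elements bound by IRF factors. Both were sought on both strands, and none of the matches overlap.
Cybb: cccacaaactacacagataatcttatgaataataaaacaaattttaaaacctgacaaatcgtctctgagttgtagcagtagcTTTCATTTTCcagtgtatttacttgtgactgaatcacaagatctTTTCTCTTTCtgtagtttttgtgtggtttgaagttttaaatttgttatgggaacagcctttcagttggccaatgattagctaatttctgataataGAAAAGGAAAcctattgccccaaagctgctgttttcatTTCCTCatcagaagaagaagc
Cyba: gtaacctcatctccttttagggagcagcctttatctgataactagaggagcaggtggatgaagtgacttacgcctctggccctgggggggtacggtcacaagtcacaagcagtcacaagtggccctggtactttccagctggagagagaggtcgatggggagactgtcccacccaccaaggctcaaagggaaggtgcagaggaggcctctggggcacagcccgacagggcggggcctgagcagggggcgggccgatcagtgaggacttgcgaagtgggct
Ncf1: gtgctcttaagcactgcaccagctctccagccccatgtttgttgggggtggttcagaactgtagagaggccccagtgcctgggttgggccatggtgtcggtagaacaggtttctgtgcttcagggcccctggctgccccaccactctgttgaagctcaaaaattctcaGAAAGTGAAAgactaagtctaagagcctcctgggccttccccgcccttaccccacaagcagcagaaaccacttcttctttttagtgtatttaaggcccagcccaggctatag
The Cybb window held GAGGAA once, on the strand opposite to the one printed and 10 bases past the start, and the paired GAAA motif 3 times, beginning at positions -168, -124 and -29 from the start. The Ncf1 window held the paired GAAA motif once, at position -82. The Cyba window held neither, and its GC content was 60.0%, against 34.3% in the Cybb window. Of 32544 such windows of 280 bases in the RefSeq table, 26.1% held GAGGAA and 3.28% held the paired GAAA motif on either strand. A match of letters is a description and not a binding site.

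Of the genes of the membrane core, Cyba passed the test and Cybb did not, although the Cybb to Cyba ratio overlapped between the groups. Its exact permutation p was 0.6, where 3 against 3 libraries allow no p below 0.1. Cyba, which encodes p22phox, the stabilizing partner of the core and the docking site of p47phox, was at 8564, 13394 and 8224 normalized counts in the libraries labelled BAP1 KO, against 5776, 5659 and 5043 in control libraries. Every library labelled BAP1 KO lay above every control library, as was the case for 20.4% of all genes tested. Cyba averaged 10061 ± 2892 in the libraries labelled BAP1 KO and 5493 ± 393.8 in control libraries (SD, n = 3 each), a 1.83-fold rise with a log2 fold change of 0.84 (SE 0.17, 95% interval 0.47 to 1.21, limma adjusted p = 0.00398). After a correction of each library for GC content and transcript length the rise was 0.46 on the log2 scale and still passed (limma adjusted p = 0.0205). Cyba has the highest transcript GC content of the 5 genes, 59.3%.

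Cybb, the X-linked gene of gp91phox, which carries the heme and flavin groups that pass the electrons, was at 11836, 9872 and 4668 normalized counts in the libraries labelled BAP1 KO, against 5241, 6265 and 5202 in control libraries. Replicates 1 and 2 labelled BAP1 KO lay above all control libraries and replicate 3 lay below all of them, so the groups overlapped. The mean was 8792 ± 3704 in the libraries labelled BAP1 KO and 5569 ± 602.8 in control libraries (SD, n = 3 each). The log2 fold change of 0.56 (SE 0.27, 95% interval -0.02 to 1.14) did not pass (limma adjusted p = 0.143). Without BAP1 KO replicate 3 it was 0.96 and passed (limma adjusted p = 0.000496), and without BAP1 KO replicate 1 it was 0.29. It also passed after the GC and length correction (0.82, limma adjusted p = 0.0259) and in DESeq2 on the recovered reads (0.66, adjusted p = 0.0226), but not in edgeR (0.66, adjusted p = 0.0804). Of all genes tested, 10.0% rose without BAP1 KO replicate 3, 14.5% after the GC and length correction, 13.9% in DESeq2 and 11.7% in edgeR, against 11.8% as first given. With libraries of the same number treated as a block, 10.8% rose without and 14.1% with the GC and length correction, and Cybb passed in the second of these (0.82, limma adjusted p = 0.00185). The transcript GC content of Cybb, 42.4%, is the lowest of the 5 genes.

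BAP1 KO replicate 3 also differed from the other libraries labelled BAP1 KO in the measures that follow. Summed over 13 neutrophil maturation markers, of which none was at 0 in either group, the libraries labelled BAP1 KO held 294529, 316912 and 114903 normalized counts, against 179099, 194379 and 143118 in control libraries. The largest part of this sum was Ngp, which did not pass (limma adjusted p = 0.169). Ngp was at 152953, 149813 and 60491 in the libraries labelled BAP1 KO, against 74541, 88933 and 61755 in control libraries. Replicate 3 labelled BAP1 KO was the lowest of the 6 libraries in this sum, as it was for Cybb, Ncf4 and Rac2. Xist, which is transcribed from the inactive X chromosome, was at 18.13, 90.58 and 3740 normalized counts in the libraries labelled BAP1 KO, against 5109, 21.02 and 2.674 in control libraries. High Xist therefore marked BAP1 KO replicate 3 and control replicate 1, whose Cybb counts were 4668 and 5241. The part of these differences in the Cybb result was not tested.

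**Figure D1:**
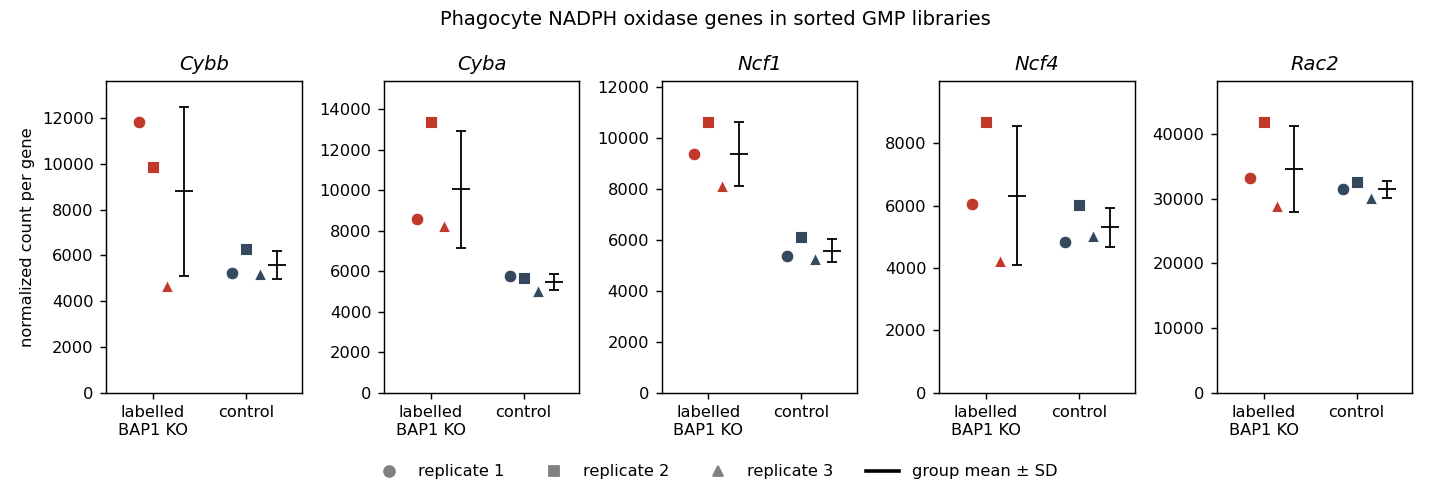
Normalized counts of Cybb, Cyba, Ncf1, Ncf4 and Rac2 (vertical axes, each starting at 0) in the 3 libraries labelled BAP1 KO and the 3 control libraries, with points for libraries and bars for the mean ± SD. The groups separate for Cyba and Ncf1, whereas replicate 3 labelled BAP1 KO falls below the control libraries for Cybb (4668), Ncf4 (4231) and Rac2 (28841).

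Of the cytosolic subunit genes, Ncf1 passed the test and Ncf4 did not. For the Ncf4 to Ncf1 ratio the exact permutation p was 0.1, or 0.2 after adjustment. Since 3 against 3 libraries allow no p below 0.1, this test could not pass the threshold and does not decide whether the 2 genes differ. Ncf1, the gene of the organizer p47phox, whose phosphorylation starts assembly, was at 9373, 10652 and 8136 normalized counts in the libraries labelled BAP1 KO, against 5379, 6107 and 5276 in control libraries. The groups did not overlap, and each library labelled BAP1 KO exceeded the highest control library, as was the case for 20.4% of all genes tested. The mean was 9387 ± 1258 in the libraries labelled BAP1 KO and 5587 ± 452.8 in control libraries (SD, n = 3 each), a 1.68-fold rise (log2 fold change 0.74, SE 0.13, 95% interval 0.47 to 1.02, limma adjusted p = 0.00141). Of the 5 genes, Ncf1 had the smallest relative spread among the libraries labelled BAP1 KO, with an SD of 13.4% of the mean.

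Ncf4, the gene of p40phox, which binds phosphatidylinositol 3-phosphate and ties the complex to phagosomes, was at 6048, 8686 and 4231 normalized counts in the libraries labelled BAP1 KO, against 4847, 6023 and 5040 in control libraries. One library labelled BAP1 KO (replicate 3) lay below all control libraries and the others above them. Its mean was 6322 ± 2240 in the libraries labelled BAP1 KO and 5303 ± 631.1 in control libraries (SD, n = 3 each), and the log2 fold change of 0.20 (SE 0.21, 95% interval -0.26 to 0.66) did not pass (limma adjusted p = 0.521). It was 0.46 without BAP1 KO replicate 3 (limma adjusted p = 0.0591) and -0.06 without BAP1 KO replicate 2.

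Rac2, the GTPase of blood cells that completes the active oxidase and also acts in the actin cytoskeleton, was the most abundant of the 5 by count and the gene at rank 64 of all genes by mean normalized count. It was at 33267, 41906 and 28841 normalized counts in the libraries labelled BAP1 KO, against 31560, 32647 and 30100 in control libraries. The control libraries lay within the range of the libraries labelled BAP1 KO. The mean was 34672 ± 6645 in the libraries labelled BAP1 KO and 31436 ± 1278 in control libraries (SD, n = 3 each). The log2 fold change was 0.12 (SE 0.14, 95% interval -0.18 to 0.43, limma adjusted p = 0.551) and was -0.02 without BAP1 KO replicate 2.

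For each of the 5 genes the libraries labelled BAP1 KO differed more among themselves than the control libraries did. The SD was 13.4 to 42.1% of the mean in the libraries labelled BAP1 KO and 4.07 to 11.9% in control libraries, with Cybb the most variable in the libraries labelled BAP1 KO. Counting error is small beside this: the lowest count of any of the 5 genes in any library was 3705 reads (Ncf4), for which the counting error is 1.64%. It covers counting only, since the amplified reads carried no molecular identifiers. The larger spread was not particular to the 5 genes. Over genes in general, a chi-square per gene against counting noise was 45.4 to 55 between libraries labelled BAP1 KO. It was 13.9 to 19 between control libraries. The 5 genes together took 0.243 to 0.337% of gene reads in the libraries labelled BAP1 KO and 0.22 to 0.246% in control libraries.

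Of the other oxidase genes, Hvcn1 rose, and Rac1, Rap1a and Cybc1 did not pass (1 of 4 higher, 0 lower, median log2 fold change -0.21). Among all genes tested, 11.8% were higher and 15.0% lower. Hvcn1, the voltage-gated proton channel that offsets the charge moved by the oxidase, was at 6674, 9625 and 7725 normalized counts in the libraries labelled BAP1 KO, against 4546, 4562 and 4315 in control libraries. All libraries labelled BAP1 KO lay above all control libraries, as for 20.4% of all genes tested. The log2 fold change of Hvcn1 was 0.82 (SE 0.14, limma adjusted p = 0.00119). In the GRCm38 annotation Hvcn1 shares 3148 exon bases with Tctn1 on the opposite strand, and the sources used here do not say whether reads were counted by strand. Tctn1 moved the same way, at 1092 ± 180.4 in the libraries labelled BAP1 KO and 677.4 ± 52.85 normalized counts in control libraries (SD, n = 3 each, limma adjusted p = 0.00796).

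Rac1, the widely expressed relative of Rac2, was at 1700, 1525 and 1416 normalized counts in the libraries labelled BAP1 KO, against 1577, 1869 and 1784 in control libraries (log2 fold change -0.17, limma adjusted p = 0.353). It shares 2770 exon bases with Daglb on the opposite strand, so its count is uncertain as well. Cybc1 encodes a chaperone of the flavocytochrome and was at 3051 ± 250.7 in the libraries labelled BAP1 KO and 3610 ± 218.1 in control libraries (SD, n = 3 each). All 3 libraries labelled BAP1 KO lay below all control libraries for Cybc1, as was the case for 22.5% of all genes tested, but the test was not passed (limma adjusted p = 0.14). Rap1a, a small GTPase that copurifies with the flavocytochrome, was at 3367, 2541 and 2139 in the libraries labelled BAP1 KO, against 3303, 3899 and 3611 in control libraries (log2 fold change -0.45, limma adjusted p = 0.0557). Rap1a passed without BAP1 KO replicate 1 (-0.63, limma adjusted p = 0.00594), over genes with a mean of at least 50 (0.0462), scaled by total gene reads (0.0191) and in DESeq2 (0.0447). Its log2 fold change was -0.16 after the GC and length correction.

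**Figure D2:**
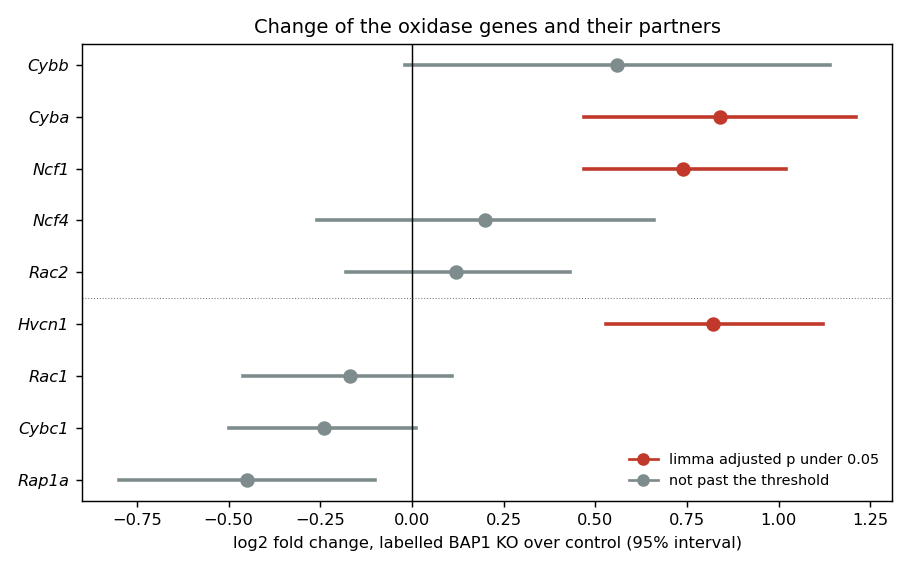
Log2 fold changes of the libraries labelled BAP1 KO over control libraries with 95% intervals (horizontal axis) for the 5 genes above the dotted line and 4 partners below it. Cyba (0.84), Ncf1 (0.74) and Hvcn1 (0.82) passed the adjusted threshold, whereas the intervals of Cybb, Ncf4 and Rac2 reach below 0.

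Ratios of subunits within a library do not depend on its size factor. The Ncf4 to Ncf1 ratio of normalized counts was 0.645, 0.815 and 0.52 in the libraries labelled BAP1 KO, against 0.901, 0.986 and 0.955 in control libraries. The groups did not overlap: relative to Ncf1, Ncf4 had lower counts in every library labelled BAP1 KO. The difference in mean log2 ratio was -0.54. Its 2-sided exact permutation p was 0.1, the smallest that 3 against 3 libraries allow, and 0.2 after Benjamini-Hochberg adjustment over the 4 ratios computed, of which 3 are given.

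The other ratios overlapped. The Cybb to Cyba ratio of the membrane core was 1.38, 0.737 and 0.568 in the libraries labelled BAP1 KO, against 0.907, 1.11 and 1.03 in control libraries (exact permutation p = 0.6). Its SD on the log2 scale was 0.66 among the libraries labelled BAP1 KO and 0.15 among control libraries. After the GC and length correction the log2 fold change was 0.82 for Cybb and 0.46 for Cyba, against 0.56 and 0.84 without it. Their order thus turned around, and the ratios given here carry no such correction. The Rac2 to Rac1 ratio was 19.6, 27.5 and 20.4 in the libraries labelled BAP1 KO, against 20.0, 17.5 and 16.9 in control libraries (exact permutation p = 0.2). Since an overlapping gene can add reads to Rac1, the size of this ratio is uncertain.

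**Figure D3:**
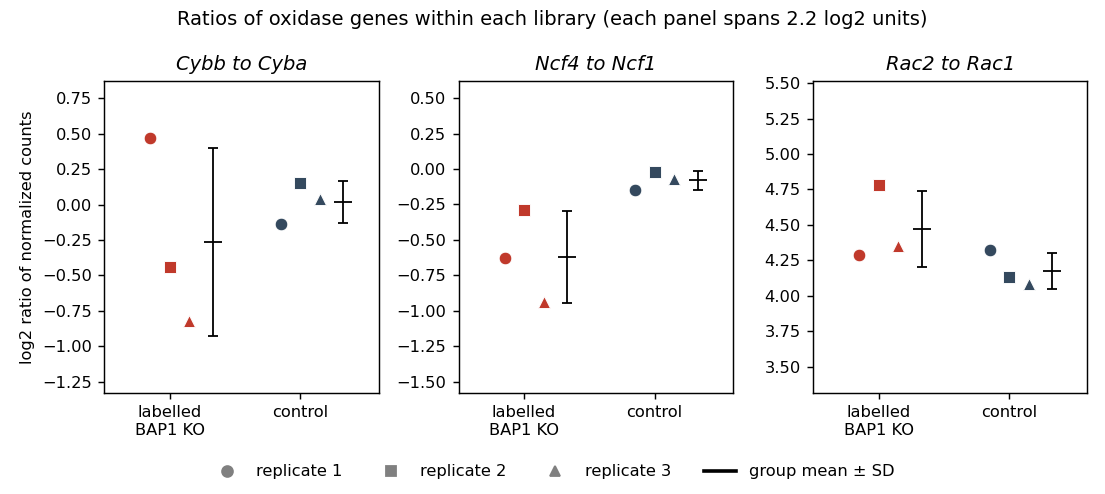
Log2 ratios of normalized counts of 2 genes within each library (vertical axes, each spanning the same log2 width), for the 3 libraries labelled BAP1 KO and the 3 control libraries, with points for libraries and bars for the mean ± SD. Ncf4 to Ncf1 is lower in every library labelled BAP1 KO (mean log2 difference -0.54), whereas Cybb to Cyba ranges from -0.82 to 0.47 there.

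Levels of different genes were compared per kilobase of exon in the GENCODE M21 annotation, as normalized counts per kb. In the libraries labelled BAP1 KO, Cyba led with 11054 to 18003 per kb, followed by Rac2 with 9494 to 13794, Ncf4 with 2890 to 5933, Ncf1 with 2823 to 3696 and Cybb with 982 to 2491. In control libraries, Rac2 led with 9908 to 10746 per kb, followed by Cyba with 6779 to 7764, Ncf4 with 3311 to 4114, Ncf1 with 1831 to 2119 and Cybb with 1095 to 1318. In control libraries no neighbours in this order overlapped, whereas in the libraries labelled BAP1 KO the ranges of Cyba and Rac2 overlapped, as did those of Ncf4 and Ncf1.

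The homologous oxidases of other tissues were nearly unread. Of 9 NOX and DUOX genes and their partners, 7 fell under the filter on low values, and the 2 tested, Nox1 and Noxo1, did not pass. Nox3, Duox1, Duox2 and Duoxa1 had 0 reads in all 6 libraries. A count of 0 allows up to 3 reads per library, or 3.12 to 3.43 normalized counts in the libraries labelled BAP1 KO and 2.67 to 2.87 in control libraries. Summed over the 9 genes, 55.95 to 96.83 normalized counts were found in the libraries labelled BAP1 KO and 85.57 to 112.7 in control libraries, which is far below Cybb alone.

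Of 15 receptors that trigger the oxidase, 3 rose and 6 fell (median log2 fold change -0.02), beside 11.8% higher and 15.0% lower among all genes tested. Ifngr1, the ligand-binding chain of the interferon gamma receptor, rose to 38589 ± 2515 normalized counts in the libraries labelled BAP1 KO, against 18540 ± 891.7 in control libraries (SD, n = 3 each; log2 fold change 1.06, limma adjusted p = 6.69e-05). The signalling chain Ifngr2 had a log2 fold change of -0.74 (limma adjusted p = 0.00238). Itgb2, the shared beta chain of the leukocyte integrins, rose by 0.66 log2 units (limma adjusted p = 0.00376), whereas Fcgr3, an activating Fc receptor, fell by 0.77 (0.00198). Clec7a, the beta-glucan receptor Dectin-1, was at 125.9, 67.67 and 67.37 normalized counts in the libraries labelled BAP1 KO, against 1334, 1340 and 1456 in control libraries (log2 fold change -4.03, limma adjusted p = 1.81e-06). Tlr2, a receptor for bacterial lipoproteins, fell by 1.11 (0.00105). Fpr2, a formyl peptide receptor, was at 345.6, 446.7 and 85.64 in the libraries labelled BAP1 KO, against 94.18, 32.49 and 72.2 in control libraries. Its groups overlapped, and its call (limma adjusted p = 0.0242) was lost without BAP1 KO replicate 1 (0.0888) or 2 (0.117) and without control replicate 2 (0.106) or 3 (0.0552).

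Among 18 kinases and lipid enzymes that act upstream of assembly, 1 rose and 2 fell (median log2 fold change -0.06), no larger a share than the 11.8% higher and 15.0% lower among all genes tested. Prkcb, a protein kinase C that phosphorylates p47phox, was at 1729, 2109 and 2049 normalized counts in the libraries labelled BAP1 KO, against 490.5, 483.5 and 598.1 in control libraries. This 3.74-fold rise (log2 fold change 1.90, SE 0.15, limma adjusted p = 9e-06) is larger than that of any of the 5 oxidase genes. Pak1, a kinase activated by Rac, fell by 0.63 log2 units (limma adjusted p = 0.00389), and Pla2g4a, a phospholipase that releases arachidonic acid, fell by 0.58 (0.00705), a call lost after the GC and length correction (0.0681).

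Of 17 transcription factors known to act on oxidase promoters, 4 rose and 3 fell (median log2 fold change 0.20), beside 11.8% higher and 15.0% lower among all genes tested. PU.1 and the interferon regulatory factors IRF1 and IRF8 are known to bind the human CYBB promoter. Spi1, which encodes PU.1, was at 3650, 5384 and 2940 normalized counts in the libraries labelled BAP1 KO, against 2979, 3101 and 3147 in control libraries (log2 fold change 0.33, SE 0.18, limma adjusted p = 0.206). As for Cybb, Ncf4 and Rac2, replicate 3 labelled BAP1 KO was below all control libraries and the other replicates above them. Without BAP1 KO replicate 3, Spi1 passed (0.53, limma adjusted p = 0.0314), and after the GC and length correction its log2 fold change was 0.03.

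Irf8 was at 1238, 2361 and 586.9 normalized counts in the libraries labelled BAP1 KO, against 6208, 5914 and 5677 in control libraries, and fell by 2.31 on the log2 scale (SE 0.36, limma adjusted p = 0.000833). Irf1 fell by 0.80 (limma adjusted p = 0.00522). Whether either factor bears on the oxidase genes was not tested. Cebpe, a factor of granulocyte maturation, was at 2241, 4057 and 2229 in the libraries labelled BAP1 KO, against 1560, 1505 and 1448 in control libraries (log2 fold change 0.86, SE 0.20, limma adjusted p = 0.00914), and its rise was 0.46 after the GC and length correction (0.0452). Nfkb1, a subunit of NF-kappa-B, rose by 0.60 log2 units (limma adjusted p = 0.00265), and Gfi1, a repressor needed for neutrophil development, rose by 0.76 (0.00451), or by 0.49 after that correction (0.0419). Cux1 rose by 0.42 (0.0156), a call lost without any 1 control replicate (0.0598 to 0.0711). HOXA10 and HOXA9 act in opposite directions on human CYBB. Hoxa9 fell by 2.63 log2 units (limma adjusted p = 0.000199), and Hoxa10 was at 0, 16.66 and 13.7 in the libraries labelled BAP1 KO, against 11.55, 30.58 and 21.39 in control libraries (limma adjusted p = 0.242).

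Of 9 tested NADPH supply genes, 2 rose and 2 fell (median log2 fold change -0.24), with 11.8% of all genes tested higher and 15.0% lower. Tkt, the transketolase of the pentose phosphate pathway, rose by 0.63 log2 units (limma adjusted p = 0.00686). Idh1, the cytosolic isocitrate dehydrogenase, was at 3807, 4728 and 2510 normalized counts in the libraries labelled BAP1 KO, against 9393, 9181 and 8054 in control libraries (log2 fold change -1.31, limma adjusted p = 0.000555). Nnt, the mitochondrial transhydrogenase, fell by 0.64 (0.00311), and Pgls, a pentose phosphate lactonase, rose by 0.61 (0.0166), or by 0.35 after the GC and length correction (0.0492), a call lost without control replicate 2 (0.0519) or 3 (0.0754). Of 20 genes that handle superoxide and peroxides, 3 rose and 3 fell (median log2 fold change 0.02), which is near those shares of all genes. Gsr, which regenerates glutathione with NADPH, was at 14627, 13957 and 10638 in the libraries labelled BAP1 KO, against 4555, 5785 and 6327 in control libraries (log2 fold change 1.23, limma adjusted p = 0.000208). Nqo1, a quinone reductase, rose by 2.13 (0.000114) and Gpx4, which reduces lipid peroxides, by 0.73 (0.00252), or by 0.37 after the GC and length correction (0.0224). The peroxidase genes Prdx2 and Gpx3 fell by 1.02 (0.000102) and 1.11 (0.000148), and the heme oxygenase gene Hmox1 fell by 1.09 (0.00763), which without control replicate 3 did not pass (0.0527).

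The oxidase genes are expressed in neutrophils, monocytes, dendritic cells and B cells, so marker genes of those cells were read beside them. Each count below stands beside 11.8% higher and 15.0% lower among all genes tested. Of 8 GMP and primary granule markers 4 rose and 2 fell, and none was at 0 in either group. Their summed level was 1099656 to 1593583 normalized counts in the libraries labelled BAP1 KO and 885594 to 959286 in control libraries. The largest part of this sum was Mpo, which did not pass (limma adjusted p = 0.251). Mpo was at 513034, 758797 and 634086 in the libraries labelled BAP1 KO, against 523637, 517477 and 488642 in control libraries. The markers that rose included Ctsg, a granule protease (log2 fold change 0.70, limma adjusted p = 0.00153), and Ms4a3 of committed granulocyte-monocyte progenitors (0.76, 0.00214). Cd34 of the sort gate fell by 1.54 (5.04e-06). Of the 13 neutrophil maturation markers 1 rose, Lcn2 (1.02, limma adjusted p = 0.00377), and 0 fell, no larger a share than among all genes tested. Of 11 tested monocyte and macrophage markers 1 rose and 9 fell, and none was at 0 throughout either group. Their summed level was 104357, 115691 and 56516 normalized counts in the libraries labelled BAP1 KO, against 106464, 124947 and 108978 in control libraries. Most of this sum was Ly6c2, a surface marker of monocytes that did not pass, at 87914, 98227 and 46716 in the libraries labelled BAP1 KO, against 57137, 66624 and 60557 in control libraries (log2 fold change 0.27, limma adjusted p = 0.418). Cd68, a lysosomal glycoprotein, rose by 1.20 (4.67e-05), whereas F13a1 (-2.52, 1.46e-07) and Cx3cr1 (-4.69, 2.88e-05) fell.

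Of 9 tested dendritic cell markers 0 rose and 7 fell, beside 11.8% higher and 15.0% lower among all genes tested. Their summed level was 2109 to 5093 normalized counts in the libraries labelled BAP1 KO and 8938 to 24058 in control libraries. None of the tested markers was at 0 throughout a group, although Siglech was at 0 in BAP1 KO replicate 3. Of 8 tested B lymphoid markers 0 rose and 8 fell, with 1661 to 5961 in the libraries labelled BAP1 KO and 10033 to 10889 in control libraries, and Pax5 and Vpreb3 had 0 reads in the libraries labelled BAP1 KO. Of 9 mast cell, basophil and eosinophil markers 1 rose and 6 fell, and none was at 0. Their summed level was 16965 to 25869 in the libraries labelled BAP1 KO and 52507 to 60927 in control libraries. The largest part of the control sum was Prss34, at 24252, 28555 and 30820, against 952.6, 570.6 and 1150 in the libraries labelled BAP1 KO. The marker that rose was Mcpt8 (log2 fold change 0.62, limma adjusted p = 0.0168). Mcpt8 was at 10749, 8601 and 13370 in the libraries labelled BAP1 KO, against 6151, 6617 and 8315 in control libraries. Most tested members thus fell in the monocyte, dendritic cell and B lymphoid lists and in that of mast cells, basophils and eosinophils. In the GMP list more members rose than fell, whereas 12 of the 13 neutrophil maturation markers did not pass. The part of these cell types in the oxidase values was not tested.

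Over the 6 libraries, on the log2 scale, Cyba and Ncf1 followed each other at r = 0.95 and Ncf4 and Rac2 at r = 0.97, whereas the remaining 8 pairs lay between 0.59 and 0.78. These correlations describe 6 libraries that share size factors and fall into 2 groups. Among 11638 genes with a mean normalized count of at least 50, the closest to Cyba were Prss57 (r = 0.994), Gm15927 (0.993) and Cebpe (0.992), and the closest to Ncf1 were Cenpo (0.995), Rab5b (0.993) and Cnot6l (0.992). Prss57 was at 13725, 19757 and 13406 in the libraries labelled BAP1 KO, against 8631, 8603 and 7649 in control libraries. The genes closest to Cybb were Calu (0.987), Irf2bp1 (0.983) and Hsd11b1 (0.981). Hsd11b1 was at 5606, 5392 and 2704 in the libraries labelled BAP1 KO, against 3032, 3160 and 2641 in control libraries, with BAP1 KO replicate 3 inside the control range. The genes closest to Ncf4 were Rps2-ps4 (0.993), 4930523C07Rik (0.983) and Gtf3a (0.982), and those closest to Rac2 were Gtf3a (0.998), Gm6682 (0.993) and Cnn2 (0.989).

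**Figure D4:**
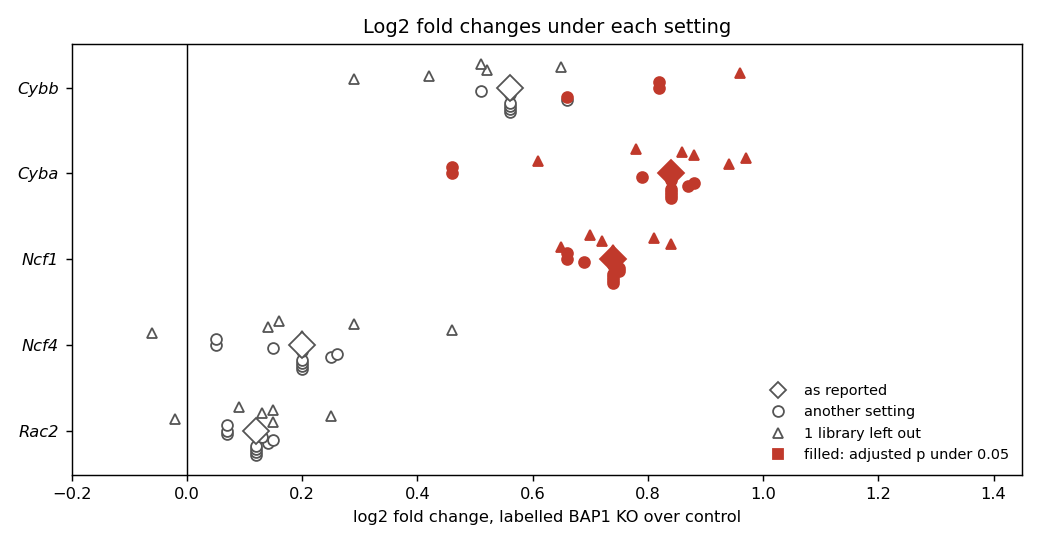
Log2 fold changes of the libraries labelled BAP1 KO over control libraries (horizontal axis) for the 5 genes under each of 17 other settings and as reported (diamonds), with triangles where 1 library was left out and filled symbols where the adjusted p was under 0.05. Cyba (0.46 to 0.97) and Ncf1 (0.65 to 0.84) passed under each of these settings, Cybb passed under 4 of them, and Ncf4 and Rac2 passed under none.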

How the data were processed

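RNA of 6 sorted GMP libraries was measured, 3 labelled BAP1 KO and 3 control. A SMARTer low-input kit was used to amplify the RNA before Ion Torrent whole-transcriptome libraries were built, per the labels' protocols. HTSeq, STAR, BWA 0.7.5a, DESeq2 and Picard, with the builds mm9 and NCBIM37, are listed without roles in the submitters' processing notes. The signal values deposited by the authors were gene counts scaled by a size factor: 100% of values above 0 were whole multiples of 1 read within a tolerance of 0.01, and dividing gave back whole reads. The 5 rows naming no gene took 74.8 to 77.1% of listed reads and were left out. Of 37620 gene rows, 32897 had a symbol in GENCODE M21 (GRCm38). Its lengths, GC content and exon overlaps are on another build than the counts.

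Tests used limma 3.58.1 under R 4.3.3 on log2(value + 1), where the added 1 understates changes of low genes. Variances were moderated by eBayes along a trend. The fit covered 14391 genes with a mean of at least 10, with group as the only term. On the recovered whole reads of the same genes, edgeR 4.0.16 and DESeq2 1.42.0 were run as alternatives; edgeR called 1686 genes higher and 2067 lower. Ratios were compared by exact permutation (scipy 1.17.1). All fits were tested on simulated counts. Same-numbered libraries were not treated as pairs: their deviations from group means correlated at -0.1, 0.04 and -0.06. Replicates differed far beyond counting noise, with a chi-square per gene of 45.4 to 55 between libraries labelled BAP1 KO and 13.9 to 19 between control libraries.

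Members, gene lists and tests were chosen with earlier results of these data known. From each list, up to 4 called genes per direction with the lowest adjusted p were named, with all oxidase genes and Rac1, Spi1, Irf8, Hoxa9, Hoxa10 and Bap1; not each was printed. For likeness, the 3 genes with the highest r to each member were named. Tctn1, Gtf2ird2, Gm20388, Xist, Ly6c2, Ngp, Siglech and Mpo were added after their values were seen. Some genes and lists are not reported here.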

Additional observations from a re-analysis of the deposited data

How the results depend on the processing

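The rise of Cyba and Ncf1 kept its direction and its side of the threshold under all 17 alternatives, which covered the pseudocount, the filter, the scaling, edgeR, DESeq2, the GC and length correction, the replicate block and each library left out. Cybb, which did not pass, passed in DESeq2 (0.66), after the GC and length correction without and with a replicate block (0.82 in both) and without BAP1 KO replicate 3 (0.96). Ncf4 and Rac2 turned to -0.06 and -0.02 without BAP1 KO replicate 2; the cause was not tested. With each library left out in turn, the log2 fold change ranged from 0.29 to 0.96 for Cybb, 0.61 to 0.97 for Cyba, 0.65 to 0.84 for Ncf1, -0.06 to 0.46 for Ncf4 and -0.02 to 0.25 for Rac2. The differences in mean log2 ratio ranged from -0.646 to -0.004 for Cybb to Cyba, -0.71 to -0.38 for Ncf4 to Ncf1 and 0.144 to 0.389 for Rac2 to Rac1, and with 2 against 3 libraries no p can be below 0.2. The count of genes called ranged from 2425 (without control replicate 3; 2449 without control replicate 2) to 4115, against 3858 with all libraries. The replicate block, whose numbers are not stated to pair the libraries, gave 3564 genes and changed no call among the 5 genes (Cybb limma adjusted p = 0.067). With the GC and length correction the block gave 4256 genes. At 3 libraries a group, the 95% intervals reach up to 0.66 for Ncf4 and 0.43 for Rac2 on the log2 scale.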
